A study of Mus musculus with 6 samples.

Results

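Rab genes encode the Rab GTPases, the largest family of small GTPases and the one that gives membrane compartments their identity. They were followed here in mouse oocytes and early embryos with and without YAP, the coactivator of transcription that the Hippo pathway restrains, encoded by Yap1. Members were all gene symbols made of Rab, a number and at most 1 lower-case letter, a rule that uses no measured value. It found 57 of 23308 symbols. Genes named after a Rab that they bind, and Rab7l1, fall outside it.

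The series holds 6 sequencing libraries, each from 60 oocytes or embryos of females aged 21 to 23 days on an ICR background that had been given PMSG/hCG and, for embryos, mated. By its title the series is about YAP stored in the oocyte and the start of the embryonic genome. Embryos at the 4-cell stage gave 1 library of YAP-/- embryos from YAP-/- females and 1 of wild-type embryos from WT females. Oocytes at the germinal vesicle (GV) stage, fully grown and arrested before meiotic maturation, gave 2 YAP-/- libraries and 2 WT libraries, numbered 1 and 2. Values of paired libraries below are given in that order. Libraries are called YAP-null and wild type here, after their labels. The labels do not say in which cells of the females Yap1 was deleted or by what means, nor the fathers' genotype, nor whether libraries 1 and 2 of a group came from separate animals, so a p-value measures only the spread between these libraries, which may be technical. The source field of the 4-cell samples names GV oocytes, against their titles and stage fields, which were followed.

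A Rab protein is a switch. Bound to GTP on a membrane it recruits effectors, such as tethers and motors, and a GTPase-activating protein (GAP) turns it off, after which GDP dissociation inhibitor (GDI) carries it through the cytosol in its prenylated form. Guanine nucleotide exchange factors turn it on again. Each Rab marks a compartment: Rab1 the traffic from endoplasmic reticulum to Golgi, Rab5 the early endosome, Rab7 the late endosome, Rab11 the recycling endosome, and Rab3 and Rab27 the secretory granules. Oocytes store transcripts that are destroyed after fertilisation while the embryo's own genome is switched on. In the mouse oocyte, Rab11a vesicles take part in placing the spindle, and Rab3a and Rab27a act in the release of cortical granules, which keeps further sperm out.

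Yap1 was lower in the libraries labelled YAP-null, to unequal degrees. It had 33.3 FPKM in the YAP-null 4-cell library and 89.7 FPKM in the wild-type one, and 10.8 and 10.04 FPKM in YAP-null GV libraries against 248 and 154 FPKM in wild-type GV libraries. The YAP-null 4-cell library thus kept 37.2% of the wild-type level, while the YAP-null GV mean was 5.19% of the wild-type one. Its Yap1 level is above both YAP-null GV libraries and fits a label of YAP-/- only in part. No source used here says which part of Yap1 was deleted. FPKM is a level per transcript length and per library, so that levels can be compared between genes, and the number of fragments behind a value is unknown. Between 9984 and 10823 genes reached 1 FPKM in a library. YAP-null GV library 1 held 88240 FPKM of a single small RNA gene, Mir762. The oocyte markers were present in GV libraries, where the 12 of them summed to 5923 to 10963 FPKM, and the 8 cleavage-stage markers were at 1228 to 1489 FPKM there, against 2430 FPKM in the YAP-null 4-cell library and 3792 FPKM in the wild-type one. Of 12 granulosa and cumulus markers, Ptx3 was at 0 in every library. In 6 of the 12 both 4-cell values lay below all GV values, and in 1, Amhr2, both lay above. Among the 6, GV libraries had 6.12 to 15.6 FPKM of Inha, 9.51 to 13.6 FPKM of Cyp19a1 and 3.05 to 4.46 FPKM of Amh. Each of these was below 1 FPKM in both 4-cell libraries. The part of granulosa and cumulus RNA in the stage differences was not tested. The 12 markers summed to 64.6 FPKM in the YAP-null 4-cell library and 76.4 FPKM in the wild-type one, and to 29.3 to 36.2 FPKM in GV libraries. Amhr2 alone made 62.03 FPKM of this in YAP-null embryos and 74.7 FPKM in wild-type embryos. The 9 blood and stroma markers summed to 41.1 FPKM in the YAP-null 4-cell library and 95.2 FPKM in the wild-type one and to 12.8 to 25.7 FPKM in GV libraries, and 6 of them were at 0 in the YAP-null 4-cell library.

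The summed level of the Rab family lay in a narrow range. Its 57 genes summed to 1624 FPKM in the YAP-null 4-cell library and 1440 FPKM in the wild-type one, and to 1324 and 1462 FPKM in YAP-null GV libraries and 1330 and 1469 FPKM in wild-type GV libraries. That was 0.421% of all FPKM in the YAP-null 4-cell library against 0.326% in the wild-type one, and 0.286% to 0.403% in GV libraries. The lowest of these was YAP-null GV library 1, whose total holds the Mir762 value. With Mir762 left out its share was 0.354%, still the lowest of the GV libraries but above the wild-type 4-cell library. More members were detected after fertilisation: 46 members in the YAP-null 4-cell library and 42 members in the wild-type one reached 1 FPKM, against 34 to 36 members in the GV libraries. Rab7, which directs late endosomes to fusion with lysosomes, was the highest member in all 6 libraries. The 5 highest members held 53.2% of the family's sum in the YAP-null 4-cell library against 60.9% in the wild-type one, and 47.2% to 51.4% in GV libraries. Rab20 and Rab5a stood among these 5 at the 4-cell stage, and Rab38 stood among them in every GV library.

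The members behind that sum were not the same at both stages. Of the 57 genes, 43 averaged 1 FPKM or more across the 6 libraries and were tested between stages, and 31 reached 1 FPKM in every library. The 14 members that were not tested reached at most 3.53 FPKM in any library. Rab17 and Rab27b were listed at 0 throughout. The per-library values of 41 members are given below. The other 16 members reached at most 10.2 FPKM (Rab23), and 8 of them never reached 1 FPKM. The deposited tables carry bounds for each value, whose level of confidence is not given: over members at 1 FPKM or more their median half-width was 11.9% (wild-type GV library 1) to 19.1% (YAP-null GV library 1) of the value, and 11 of the 342 member values lay outside their own bounds. Reads of a few members may be shared with near-copies. In GENCODE M21 transcripts 74.5% of the distinct 50-base words of Rab43 also occur in Gm45140, 58.1% of those of Rab4b occur in other genes, mainly Gm21983, and 11.2% of those of Rab7 do, mainly in the pseudogene Rab7-ps1. No other member was above 10%, and 35 members shared none. The values of Rab43, Rab4b and Rab7 are uncertain to that extent.

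Promoter sequence of 4 members is printed because they stand at either end of the stage comparison or in the Rab5 subfamily, whose make-up was unlike at the 2 stages: Rab20 and Rab5a were the members with the greatest difference in favour of 4-cell embryos, Rab5c, which did not pass the test between stages, is the Rab5 paralogue with the highest level in GV oocytes, and Rab32 was among those far lower in 4-cell embryos. Each line gives the 250 bases before the RefSeq transcription start (GRCm38.p6), 5′ to 3′ on the gene's strand. Capitals mark 3 motifs on either strand. The TEAD core GGAATG, which reads CATTCC on the opposite strand, is bound by the DNA-binding partners of YAP. The GC box is GGGCGG, which reads CCGCCC on the opposite strand. The CCAAT box is named by its letters and reads ATTGG on the opposite strand.
Rab20, chr8:11478641-11478890, minus strand: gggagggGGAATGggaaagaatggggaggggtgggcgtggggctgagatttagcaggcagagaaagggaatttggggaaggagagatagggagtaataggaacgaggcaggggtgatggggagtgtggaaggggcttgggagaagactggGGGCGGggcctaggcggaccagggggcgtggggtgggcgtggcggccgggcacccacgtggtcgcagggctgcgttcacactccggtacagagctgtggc
Rab5a, chr17:53478984-53479233, plus strand: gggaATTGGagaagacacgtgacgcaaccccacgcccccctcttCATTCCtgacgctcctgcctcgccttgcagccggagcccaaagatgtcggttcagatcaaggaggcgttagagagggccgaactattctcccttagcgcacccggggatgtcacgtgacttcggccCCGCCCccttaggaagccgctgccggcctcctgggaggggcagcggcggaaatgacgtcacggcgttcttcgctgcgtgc
Rab5c, chr11:100738216-100738465, minus strand: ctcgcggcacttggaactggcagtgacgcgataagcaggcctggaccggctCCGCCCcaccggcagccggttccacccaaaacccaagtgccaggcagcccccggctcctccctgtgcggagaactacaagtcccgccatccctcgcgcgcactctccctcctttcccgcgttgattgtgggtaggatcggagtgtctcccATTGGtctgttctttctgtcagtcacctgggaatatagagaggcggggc
Rab32, chr10:10558208-10558457, minus strand: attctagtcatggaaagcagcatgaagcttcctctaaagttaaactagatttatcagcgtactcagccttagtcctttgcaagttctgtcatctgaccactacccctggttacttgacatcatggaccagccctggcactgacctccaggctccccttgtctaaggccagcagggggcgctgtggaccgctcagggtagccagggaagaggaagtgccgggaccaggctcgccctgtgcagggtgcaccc
The window of Rab20 held a TEAD core and a GC box, the window of Rab5a held both of these and a CCAAT box, the window of Rab5c held a GC box and a CCAAT box, and the window of Rab32 held none of these letters. The table of starts matched 47 of the 57 members, with 59 windows. A TEAD core, on either strand, was in 10.2% of the members' windows and in 12.6% of all 32851 windows of this length, and a GC box in 67.8% of the members' and 32.7% of all windows. The 6 members with a TEAD core were Rab5a, Rab11a, Rab11b, Rab15, Rab20 and Rab21. A CCAAT box was in 40.7% of the members' and 33.8% of all windows, and a TATA box (TATAAA) in 6.78% of the members' and 12.4% of all. The median GC content was 60.4% in the members' windows and 52.4% in all windows. A match of letters is a description and does not show a site.

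Between stages, 16 of the 43 tested members were higher in 4-cell embryos than in GV oocytes and 11 were lower (limma on log2(FPKM + 1) with genotype as a term, Benjamini-Hochberg adjusted p of 0.05 over 11451 genes), while 16 did not pass. Among all genes tested, 28.2% were higher and 27.8% lower by the same rule, 56% in all. The members' median difference was −0.13 and that of all genes −0.10 on the log2 scale. A difference of stages is relative to the rest of each library: fewer cells of a type and less RNA per cell cannot be told apart in such samples. The 2 4-cell libraries differ in genotype label, so the stage difference is an average over both genotypes. By separation alone, 16 members had both 4-cell libraries above all 4 GV libraries with at least a 2-fold difference of means (30.2% of all genes), and 12 had both below (29.9% of all genes). Of the 43 tested members 9 averaged under 1 FPKM at 1 of the stages, so they were tested only through the stage where they were high and had to differ. They are Rab2b, Rab19, Rab20, Rab24, Rab34, Rab39, Rab42 and Rab43, all higher in 4-cell embryos, and Rab25, which was lower. Their values are given below as a description, with no p. Of the 34 members that averaged 1 FPKM or more at each stage, 8 were higher and 10 lower, beside 23.5% and 24.6% of the 8915 genes of that kind. Among these 18, Rab5a (higher) and Rab3b, Rab4b, Rab21 and Rab38 (lower) were called in every alternative that tested them. Over all 43 tested, fewer members were called in either direction when either 4-cell library was left out. Such a fit leaves 1 library at that stage, so its p-value holds no spread between 4-cell libraries. Adjusted p-values given below for such fits rest on the spread of the GV libraries alone.

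**Figure D1:**
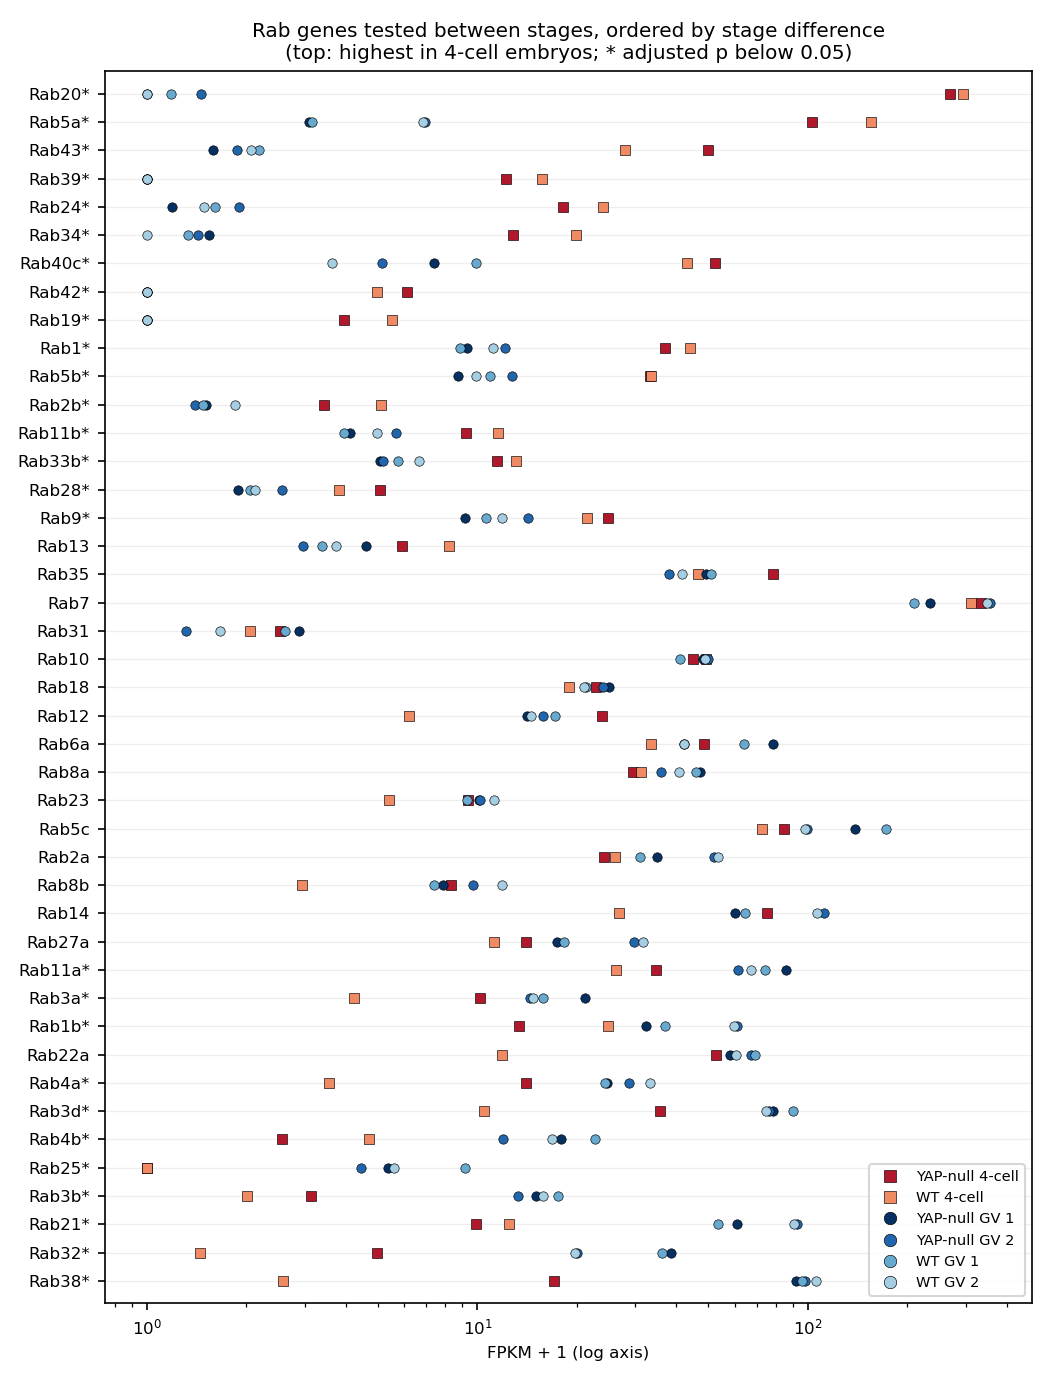
Level of the 43 tested Rab genes in each of the 6 libraries, as FPKM + 1 on a log axis, ordered from the greatest difference in favour of 4-cell embryos at the top to the greatest in favour of GV oocytes at the bottom. Squares are 4-cell libraries, circles are GV libraries, and an asterisk marks an adjusted p below 0.05. For Rab2b, Rab19, Rab20, Rab24, Rab25, Rab34, Rab39, Rab42 and Rab43 the asterisk is not a test result. They averaged under 1 FPKM at 1 of the stages and had to differ. Rab20 has YAP-null 4-cell embryos at 268 FPKM, wild-type ones at 293 FPKM and no GV value above 0.458 FPKM. Rab38 has YAP-null 4-cell embryos at 16.03 FPKM, wild-type ones at 1.58 FPKM and GV libraries at 90.7 to 105 FPKM.

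Rab20 and Rab5a, of the early endosome group, had the greatest differences in favour of 4-cell embryos. The median difference of the group was −0.77 on the log2 scale, beside −0.10 for all genes. Of its 10 tested members 3 were higher in 4-cell embryos (Rab20, Rab5a and Rab5b) and 3 lower (Rab21, Rab4b and Rab4a). Among all genes tested, 28.2% were higher and 27.8% lower. The count of higher members includes Rab20, which averaged under 1 FPKM in GV oocytes and had to differ. Rab20 (mm9 chromosome 8, 11453977 to 11478499), which acts on endosomes and maturing phagosomes, had 268 FPKM in YAP-null 4-cell embryos and 293 FPKM in wild-type ones, and GV values of 0 and 0.458 FPKM in YAP-null oocytes and 0.185 and 0 FPKM in wild-type oocytes. It was thus nearly absent from oocytes and, after Rab7, the second most abundant member at the 4-cell stage in both genotypes (7.94 ± 0.33 SE on the log2 scale). Rab5a (chromosome 17, 53618559 to 53647003), which drives fusion of early endosomes, had 102 FPKM in YAP-null 4-cell embryos and 154 FPKM in wild-type ones, and GV values of 2.08 and 5.95 FPKM in YAP-null oocytes and 2.15 and 5.86 FPKM in wild-type oocytes. Both 4-cell libraries lay far above all 4 GV libraries (4.77 ± 0.51 SE on the log2 scale, adjusted p = 0.000662). Its paralogue Rab5b had 32.4 FPKM in YAP-null 4-cell embryos and 32.6 FPKM in wild-type ones, and GV values of 7.72 and 11.7 FPKM in YAP-null oocytes and 9.94 and 8.93 FPKM in wild-type oocytes, again without overlap of stages (1.68 ± 0.32 SE on the log2 scale, adjusted p = 0.00544). Without the YAP-null 4-cell library its adjusted p was 0.0505, and without the wild-type one it was 0.0646. The third paralogue, Rab5c (chromosome 11, 100576580 to 100599444), did not pass (−0.66 ± 0.39 SE, adjusted p = 0.196). It had 83.5 FPKM in YAP-null 4-cell embryos and 71.4 FPKM in wild-type ones, and GV values of 138 and 98.7 FPKM in YAP-null oocytes and 172 and 96.8 FPKM in wild-type oocytes, so GV library 1 of each genotype was the higher.

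In the other direction, Rab21 (chromosome 10, 114726918 to 114752647), which moves integrins through early endosomes, had 8.92 FPKM in YAP-null 4-cell embryos and 11.4 FPKM in wild-type ones, and GV values of 59.9 and 91.5 FPKM in YAP-null oocytes and 52.5 and 89.5 FPKM in wild-type oocytes. All GV libraries were above both 4-cell libraries (−2.70 ± 0.38 SE on the log2 scale, adjusted p = 0.00178). Rab4a and Rab4b return cargo from early endosomes to the surface. Rab4a had 13.1 FPKM in YAP-null 4-cell embryos and 2.56 FPKM in wild-type ones, and GV values of 23.6 and 27.7 FPKM in YAP-null oocytes and 23.4 and 32.3 FPKM in wild-type oocytes. Both of its 4-cell values were below all GV values, the wild-type one more so (−1.96 ± 0.52 SE on the log2 scale, adjusted p = 0.0190), and without the wild-type 4-cell library the difference was −0.92 with an adjusted p of 0.151. Rab4b had 1.56 FPKM in YAP-null 4-cell embryos and 3.71 FPKM in wild-type ones, and GV values of 16.9 and 10.95 FPKM in YAP-null oocytes and 21.7 and 15.8 FPKM in wild-type oocytes, also without overlap (−2.28 ± 0.36 SE on the log2 scale, adjusted p = 0.00250). Rab22a, which acts between early endosomes and recycling, had 51.7 FPKM in YAP-null 4-cell embryos and 10.9 FPKM in wild-type ones, and GV values of 57.2 and 66.2 FPKM in YAP-null oocytes and 68.1 and 59.8 FPKM in wild-type oocytes: only the wild-type 4-cell library lay far below the GV libraries, and the stage difference did not pass (−1.35 ± 0.53 SE, adjusted p = 0.0701). Without the YAP-null 4-cell library, which leaves the wild-type one alone at that stage, the difference was −2.45. Rab14, which links Golgi and endosomes, showed the same arrangement with 74.1 FPKM in YAP-null 4-cell embryos and 25.8 FPKM in wild-type ones, and GV values of 59.4 and 111 FPKM in YAP-null oocytes and 63.4 and 105 FPKM in wild-type oocytes (−0.88 ± 0.51 SE, adjusted p = 0.181).

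The make-up of the Rab5 subfamily was not the same at both stages. Rab5a held 46.7% of the summed Rab5 FPKM in the YAP-null 4-cell library against 59.7% in the wild-type one, and 1.17% to 5.25% in the GV libraries. Rab5c held 38.4% in the YAP-null 4-cell library against 27.6% in the wild-type one, and 84.8% to 93.4% in GV libraries. In the Rab1 pair, Rab1 held 74.4% in the YAP-null 4-cell library against 64.3% in the wild-type one, and 14.7% to 20.9% in GV libraries. In the Rab11 pair the share of Rab11b was 19.6% in the YAP-null 4-cell library against 29.4% in the wild-type one, and 3.52% to 7.15% in GV libraries. Among the Rab3 genes, Rab3d was at 75.3% in the YAP-null 4-cell library against 69.0% in the wild-type one and 69.4% to 74.6% in GV libraries. These shares are descriptions with no test of their own.

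**Figure D2:**
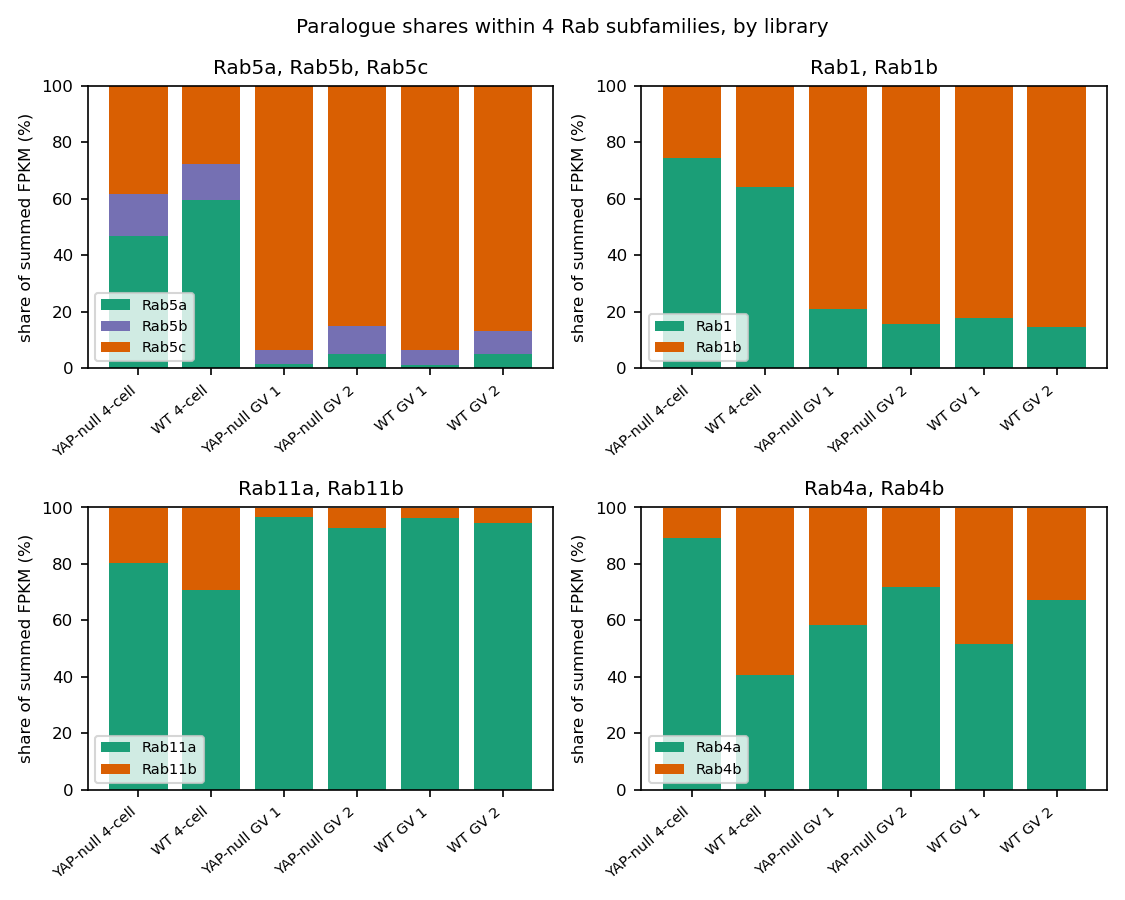
Share of each paralogue in the summed FPKM of its subfamily, in percent, in the 6 libraries. Rab5c fills 38.4% of the YAP-null 4-cell bar and 27.6% of the wild-type one and 84.8% to 93.4% of the GV bars, Rab1 fills more than Rab1b in both 4-cell libraries only, and Rab4a fills 89.3% of the YAP-null 4-cell bar and 40.8% of the wild-type one.

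Of the 9 tested members of endoplasmic reticulum and Golgi traffic, 5 were higher in 4-cell embryos and 1 was lower. Among all genes tested, 28.2% were higher and 27.8% lower. The count of higher members includes Rab2b, Rab19 and Rab43, which averaged under 1 FPKM in GV oocytes and had to differ. Rab43 (chromosome 6, 87738847 to 87761773), a Golgi Rab, had 48.9 FPKM in YAP-null 4-cell embryos and 26.9 FPKM in wild-type ones, and GV values of 0.590 and 0.868 FPKM in YAP-null oocytes and 1.18 and 1.06 FPKM in wild-type oocytes, with no overlap of stages (4.29 ± 0.37 SE on the log2 scale). Rab19, another Golgi-associated member, had 2.93 FPKM in the YAP-null 4-cell library and 4.51 FPKM in the wild-type one and was listed at 0 in every GV library. Rab1, named Rab1a in current annotation, and Rab1b both carry vesicles from the endoplasmic reticulum to the Golgi. Rab1 had 35.9 FPKM in YAP-null 4-cell embryos and 42.8 FPKM in wild-type ones, and GV values of 8.27 and 11.1 FPKM in YAP-null oocytes and 7.89 and 10.1 FPKM in wild-type oocytes (1.97 ± 0.32 SE on the log2 scale, adjusted p = 0.00300). Rab1b went the other way, with 12.4 FPKM in YAP-null 4-cell embryos and 23.8 FPKM in wild-type ones, and GV values of 31.3 and 60.1 FPKM in YAP-null oocytes and 36.05 and 58.8 FPKM in wild-type oocytes (−1.33 ± 0.43 SE on the log2 scale, adjusted p = 0.0387). For Rab1b the YAP-null 4-cell library was the lowest of all, and number 2 GV libraries were the higher in both genotypes.

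Rab2b, a Golgi Rab, was low in all libraries, with 2.45 FPKM in YAP-null 4-cell embryos and 4.11 FPKM in wild-type ones, and GV values of 0.505 and 0.396 FPKM in YAP-null oocytes and 0.477 and 0.847 FPKM in wild-type oocytes (1.44 ± 0.25 SE on the log2 scale). The deposited model of Rab2b overlaps that of Tox4 by 250 bases, and Tox4 had 72.8 FPKM in the YAP-null 4-cell library and 62.1 FPKM in the wild-type one and 2.81 to 3.76 FPKM in GV libraries. Reads of these overlapping genes may be split between them, and the part of this in the Rab2b result was not tested. Rab33b, which recruits the autophagy protein Atg16l1, had 10.5 FPKM in YAP-null 4-cell embryos and 12.1 FPKM in wild-type ones, and GV values of 4.06 and 4.19 FPKM in YAP-null oocytes and 4.76 and 5.64 FPKM in wild-type oocytes (1.12 ± 0.30 SE on the log2 scale, adjusted p = 0.0195). Without the wild-type 4-cell library the adjusted p was 0.0521 for Rab1 and 0.0964 for Rab33b, and Rab33b also lost its call without the YAP-null 4-cell library (0.0956) and without wild-type GV library 1 (0.0603). Rab1b lost it without either 4-cell library, at −0.93 and 0.282 without the YAP-null and −1.73 and 0.115 without the wild-type one, without YAP-null GV library 2 (0.0726) and without wild-type GV library 2 (0.0822).

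Rab2a, Rab6a and Rab18 were present throughout and did not pass between stages. Rab2a, in endoplasmic reticulum and Golgi transport, had 23.2 FPKM in YAP-null 4-cell embryos and 25.1 FPKM in wild-type ones, and GV values of 34.1 and 50.9 FPKM in YAP-null oocytes and 30.1 and 52.3 FPKM in wild-type oocytes (−0.73 ± 0.37 SE, adjusted p = 0.139). Rab6a, which runs retrograde traffic at the Golgi, had 47.3 FPKM in YAP-null 4-cell embryos and 32.4 FPKM in wild-type ones, and GV values of 77.3 and 41.3 FPKM in YAP-null oocytes and 63.1 and 41.3 FPKM in wild-type oocytes (−0.44 ± 0.40 SE, adjusted p = 0.374). Its model overlaps that of Mrpl48 by 411 bases, a gene with 14.97 FPKM in the YAP-null 4-cell library and 22.2 FPKM in the wild-type one and 121 to 276 FPKM in GV libraries. Rab18, found on lipid droplets and the endoplasmic reticulum, kept within a narrow range, with 21.9 FPKM in YAP-null 4-cell embryos and 17.9 FPKM in wild-type ones, and GV values of 23.9 and 22.9 FPKM in YAP-null oocytes and 20.3 and 20.1 FPKM in wild-type oocytes (−0.13 ± 0.29 SE, adjusted p = 0.726).

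In the recycling and exocytic group 8 members were tested, of which 1 was higher in 4-cell embryos and 2 were lower. Among all genes tested, 28.2% were higher and 27.8% lower. The count of lower members includes Rab25, which averaged under 1 FPKM in 4-cell embryos and had to differ. Rab25, the epithelial relative of Rab11, was listed at 0 in both 4-cell libraries and had 4.38 and 3.43 FPKM in YAP-null GV libraries and 8.17 and 4.60 FPKM in wild-type GV libraries. Rab11a (chromosome 9, 64563107 to 64585563) had 33.8 FPKM in YAP-null 4-cell embryos and 25.3 FPKM in wild-type ones, and GV values of 85.1 and 60.5 FPKM in YAP-null oocytes and 73.2 and 66.4 FPKM in wild-type oocytes. It remained the more abundant of the Rab11 pair at both stages although its 4-cell values were below all GV values (−1.25 ± 0.33 SE on the log2 scale, adjusted p = 0.0183). Rab11b moved the other way, with 8.25 FPKM in YAP-null 4-cell embryos and 10.5 FPKM in wild-type ones, and GV values of 3.11 and 4.66 FPKM in YAP-null oocytes and 2.95 and 3.95 FPKM in wild-type oocytes (1.16 ± 0.33 SE on the log2 scale, adjusted p = 0.0252). Both calls were near the threshold. For Rab11a the adjusted p was 0.0611 without wild-type GV library 1, 0.0504 without the YAP-null and 0.107 without the wild-type 4-cell library. For Rab11b it was 0.0511 to 0.183 when any single library other than YAP-null GV library 2 was left out.

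Rab10, Rab8a and Rab35 were at 28.5 FPKM or more in every library. Rab10, which takes vesicles to the plasma membrane, had 43.8 FPKM in YAP-null 4-cell embryos and 48.3 FPKM in wild-type ones, and GV values of 47.03 and 48.7 FPKM in YAP-null oocytes and 39.9 and 47.9 FPKM in wild-type oocytes, and its stage difference was 0.01 ± 0.30 SE, adjusted p = 0.984. Rab8a, which acts in exocytosis and cilium formation, had 28.5 FPKM in YAP-null 4-cell embryos and 30.2 FPKM in wild-type ones, and GV values of 46.2 and 34.9 FPKM in YAP-null oocytes and 44.9 and 39.8 FPKM in wild-type oocytes (−0.48 ± 0.31 SE, adjusted p = 0.227). Rab35, a Rab of fast recycling and cytokinesis, had 77.5 FPKM in YAP-null 4-cell embryos and 45.6 FPKM in wild-type ones, and GV values of 48.1 and 37.1 FPKM in YAP-null oocytes and 50.01 and 40.5 FPKM in wild-type oocytes (0.44 ± 0.36 SE, adjusted p = 0.326). None of these 3 passed the test. Rab8b, less abundant than Rab8a, had 7.31 FPKM in YAP-null 4-cell embryos and 1.95 FPKM in wild-type ones, and GV values of 6.85 and 8.69 FPKM in YAP-null oocytes and 6.39 and 10.8 FPKM in wild-type oocytes (−0.87 ± 0.47 SE, adjusted p = 0.159), the wild-type 4-cell library being the lowest.

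Of 5 tested members of late endosome, lysosome and autophagy, 3 were higher in 4-cell embryos, beside 28.2% of all genes tested. The count includes Rab24 and Rab34, which averaged under 1 FPKM in GV oocytes and had to differ. Rab7 (chromosome 6, 87950429 to 87963684) itself had 333 FPKM in YAP-null 4-cell embryos and 311 FPKM in wild-type ones, and GV values of 234 and 354 FPKM in YAP-null oocytes and 208 and 348 FPKM in wild-type oocytes, and its stages overlapped (0.21 ± 0.42 SE, adjusted p = 0.697). Rab24, linked to autophagy, had 17.1 FPKM in YAP-null 4-cell embryos and 23.1 FPKM in wild-type ones, and GV values of 0.192 and 0.905 FPKM in YAP-null oocytes and 0.605 and 0.484 FPKM in wild-type oocytes (3.77 ± 0.32 SE on the log2 scale). Rab34, which places lysosomes and acts in cilium formation, had 11.8 FPKM in YAP-null 4-cell embryos and 18.9 FPKM in wild-type ones, and GV values of 0.540 and 0.423 FPKM in YAP-null oocytes and 0.331 and 0 FPKM in wild-type oocytes (3.61 ± 0.34 SE on the log2 scale). For Rab24 and Rab34 every GV library was below 1 FPKM and every 4-cell library above 10 FPKM. Rab9, which returns receptors from late endosomes to the Golgi, had 23.8 FPKM in YAP-null 4-cell embryos and 20.5 FPKM in wild-type ones, and GV values of 8.15 and 13.2 FPKM in YAP-null oocytes and 9.63 and 10.9 FPKM in wild-type oocytes (1.03 ± 0.33 SE on the log2 scale, adjusted p = 0.0387), and its adjusted p was 0.0737 to 0.179 when any single library other than YAP-null GV library 2 was left out. Rab12, which sends receptors from recycling endosomes to lysosomes, did not pass and had 22.8 FPKM in YAP-null 4-cell embryos and 5.22 FPKM in wild-type ones, and GV values of 13.1 and 14.7 FPKM in YAP-null oocytes and 16.2 and 13.5 FPKM in wild-type oocytes (−0.34 ± 0.50 SE, adjusted p = 0.593).

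In the secretory granule and lysosome-related group, of 6 tested members 0 were higher in 4-cell embryos and 5 were lower. Among all genes tested, 28.2% were higher and 27.8% lower. The groups had been chosen with earlier results of these data known. The calls of Rab32, Rab3d and Rab3a were lost without the wild-type 4-cell library, as given below. The 10 genes of this group summed to 81.3 FPKM in the YAP-null 4-cell library and 27.2 FPKM in the wild-type one, against 246 to 268 FPKM in GV libraries. Rab38 (chromosome 7, 95578783 to 95640082), which with Rab32 brings enzymes to melanosomes and other lysosome-related organelles, had 16.03 FPKM in YAP-null 4-cell embryos and 1.58 FPKM in wild-type ones, and GV values of 90.7 and 96.8 FPKM in YAP-null oocytes and 94.7 and 105 FPKM in wild-type oocytes. It was one of the 5 most abundant Rab transcripts of the oocyte, and its GV libraries did not overlap with the 4-cell ones (−3.88 ± 0.63 SE on the log2 scale, adjusted p = 0.00295). Rab32 (chromosome 10, 10264837 to 10278005), whose printed promoter held none of the searched motifs, had 3.98 FPKM in YAP-null 4-cell embryos and 0.448 FPKM in wild-type ones, and GV values of 37.4 and 19.02 FPKM in YAP-null oocytes and 35.1 and 18.7 FPKM in wild-type oocytes; GV library 1 was about as high in both genotypes, and so was GV library 2 (−3.34 ± 0.55 SE on the log2 scale, adjusted p = 0.00306).

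The Rab3 genes, which prime granules for release, were all lower in 4-cell embryos, apart from Rab3c, which stayed below 0.1 FPKM. Rab3d (chromosome 9, 21711955 to 21722565), the most abundant, had 34.7 FPKM in YAP-null 4-cell embryos and 9.45 FPKM in wild-type ones, and GV values of 77.6 and 75.5 FPKM in YAP-null oocytes and 89.4 and 73.7 FPKM in wild-type oocytes (−2.05 ± 0.48 SE on the log2 scale, adjusted p = 0.0116). Rab3b had 2.13 FPKM in YAP-null 4-cell embryos and 1.00 FPKM in wild-type ones, and GV values of 14.01 and 12.3 FPKM in YAP-null oocytes and 16.5 and 14.8 FPKM in wild-type oocytes (−2.61 ± 0.35 SE on the log2 scale, adjusted p = 0.00142). Rab3a, the member studied in cortical granule release, had 9.22 FPKM in YAP-null 4-cell embryos and 3.23 FPKM in wild-type ones, and GV values of 20.2 and 13.4 FPKM in YAP-null oocytes and 14.8 and 13.7 FPKM in wild-type oocytes (−1.31 ± 0.39 SE on the log2 scale, adjusted p = 0.0279). In all 3 the GV values lay above both 4-cell values. Without the wild-type 4-cell library 3 members of the group lost their call: Rab32 at −2.48 (adjusted p 0.0722), Rab3d at −1.12 (0.0693) and Rab3a at −0.77 (0.243). Rab3a also lost it without YAP-null GV library 1 (0.0543), wild-type GV library 1 (0.0716) or wild-type GV library 2 (0.0624). Rab27a, the other cortical granule Rab, had 13.04 FPKM in YAP-null 4-cell embryos and 10.2 FPKM in wild-type ones, and GV values of 16.4 and 28.7 FPKM in YAP-null oocytes and 17.3 and 30.7 FPKM in wild-type oocytes, and did not pass (−0.90 ± 0.40 SE, adjusted p = 0.0981). The oocyte markers moved with this group: 11 of the 12 had both 4-cell values below all GV values, the sum being 939 FPKM in the YAP-null 4-cell library and 121 FPKM in the wild-type one and at least 5923 FPKM in GV libraries. Their part in the result was not tested.

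**Figure D3:**
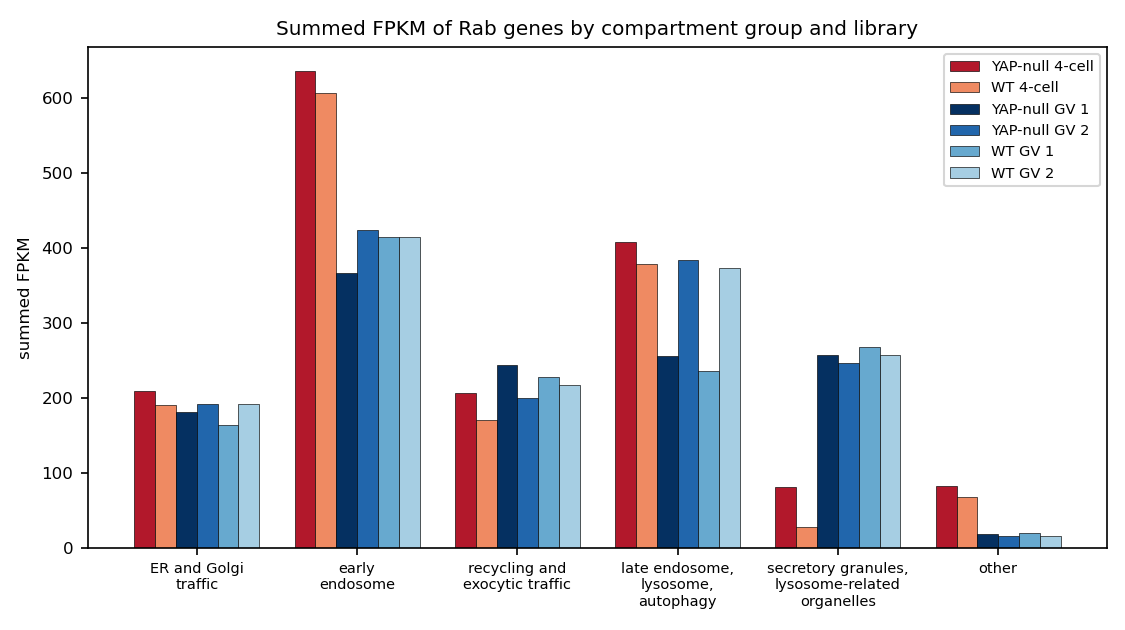
Summed FPKM of the Rab genes of each compartment group in the 6 libraries. The early endosome group is at 637 FPKM in the YAP-null 4-cell library, 606 FPKM in the wild-type one and 367 to 424 FPKM in GV libraries. Rab20 alone makes 268 FPKM of the YAP-null and 293 FPKM of the wild-type 4-cell sum. In GV libraries Rab20 has at most 0.458 FPKM. The secretory granule group is at 81.3 FPKM in the YAP-null 4-cell library and 27.2 FPKM in the wild-type one against 246 to 268 FPKM in GV libraries. The groups were chosen with earlier results of these data known.

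Among 8 genes of other or less known function, 5 were tested and 4 were higher in 4-cell embryos, beside 28.2% of all genes tested. The count includes Rab39 and Rab42, which averaged under 1 FPKM in GV oocytes and had to differ. Rab40c, a Rab with a SOCS box that binds ubiquitin ligase components, had 51.5 FPKM in YAP-null 4-cell embryos and 41.9 FPKM in wild-type ones, and GV values of 6.40 and 4.13 FPKM in YAP-null oocytes and 8.90 and 2.62 FPKM in wild-type oocytes (2.97 ± 0.48 SE on the log2 scale, adjusted p = 0.00288). Without the YAP-null 4-cell library its adjusted p was 0.0663, and without the wild-type one it was 0.0678. Rab39, linked to phagosome maturation and autophagy, had 11.2 FPKM in the YAP-null 4-cell library and 14.7 FPKM in the wild-type one and was listed at 0 in all GV libraries. Rab42 was likewise listed at 0 in all GV libraries, with 5.12 FPKM in the YAP-null 4-cell library and 3.98 FPKM in the wild-type one. Rab28, needed in photoreceptors, had 4.07 FPKM in YAP-null 4-cell embryos and 2.81 FPKM in wild-type ones, and GV values of 0.889 and 1.57 FPKM in YAP-null oocytes and 1.05 and 1.12 FPKM in wild-type oocytes (1.04 ± 0.27 SE on the log2 scale, adjusted p = 0.0186). Its adjusted p was 0.0501 without YAP-null GV library 1, 0.0526 without wild-type GV library 1, 0.0731 without the YAP-null and 0.0515 without the wild-type 4-cell library. Rab39, Rab42, Rab19 and Rab20 thus had at most 0.458 FPKM in any GV library.

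In 4-cell embryos, 10 of the 45 members that averaged 1 FPKM or more were at least 2-fold higher in YAP-null than in wild type, and 0 were 2-fold lower. By the same rule 17.7% of 10854 genes were higher and 9.97% lower. With 1 library per genotype the difference has no replicate check, no test was made and the spread between embryo samples is unknown. The members' median difference was 0.29 and that of all genes 0.05 on the log2(FPKM + 1) scale; by sign, 27 members were higher in YAP-null embryos and 18 lower, the lowest being Rab1b at −0.89. The split depends on scaling. Of all genes past 2-fold, 64.0% were higher as deposited, 53.1% after quantile normalisation, 55.5% by median ratios and 75.6% when the libraries were given equal sums. For the members these shares were 100% as deposited, 83.3% after quantile normalisation, 90.9% by median ratios and 100% with equal sums. Giving equal sums moved the median of all genes to 0.23.

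The greatest difference was that of Rab38, with 16.03 FPKM in YAP-null embryos and 1.58 FPKM in wild-type embryos, or 2.72 on the log2(FPKM + 1) scale. Next was Rab22a, with 51.7 FPKM in YAP-null embryos and 10.9 FPKM in wild-type embryos (2.15). On this scale only these 2 members passed 4-fold, 4.44% of the members described, beside 4.56% of all genes, and 0 were 4-fold lower, beside 1.85%. Of the secretory granule group, Rab32 (1.78), Rab3d (1.77) and Rab3a (1.27) were also past 2-fold, making 4 of its 7 described members with Rab38. Among all genes described, 17.7% were 2-fold higher, and the groups were chosen with earlier results of these data known. Of the early endosome group, Rab4a (1.98) and Rab14 (1.49) joined Rab22a, and the other 3 members were Rab12 (1.93), Rab8b (1.49) and Rab30 (1.94). Rab30, a Golgi Rab, had 3.53 FPKM in YAP-null embryos and 0.180 FPKM in wild-type embryos, and 0.117 to 0.623 FPKM in GV libraries. Both Rab30 and Rab32, the latter at 0.448 FPKM in wild-type embryos, averaged 1 FPKM at the 4-cell stage only through the YAP-null library. With a pseudocount of 5 FPKM the differences of Rab3a (0.79), Rab8b (0.82), Rab30 (0.72) and Rab32 (0.72) were under 2-fold.

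The comparisons of stages and of genotypes share both 4-cell libraries, so their values are given side by side. Rab38 had a stage difference of −2.48 within YAP-null and −5.29 within wild-type libraries, and Rab22a one of −0.25 within YAP-null and −2.45 within wild-type libraries. For Rab4a these were −0.92 within YAP-null and −3.00 within wild type, for Rab3d −1.12 within YAP-null and −2.97 within wild type, and for Rab12 0.67 within YAP-null and −1.34 within wild type. The 6 members with the greatest stage differences in favour of 4-cell embryos were all under 2-fold between genotypes, at −0.13 for Rab20, −0.60 for Rab5a, 0.84 for Rab43, −0.36 for Rab39, −0.41 for Rab24 and −0.63 for Rab34. All of these but Rab5a averaged under 1 FPKM in GV oocytes and had to differ between stages. Among all genes described, only 27.7% were 2-fold or more apart between genotypes in either direction. All 12 oocyte markers were at least 2-fold higher in the YAP-null than in the wild-type 4-cell library, summing to 939 FPKM in YAP-null embryos and 121 FPKM in wild-type embryos, with none at 0 in either. Of the 8 cleavage-stage markers 6 were lower in YAP-null by sign and 2 were higher. At 2-fold, 3 were lower and 0 higher. The part of these differences in those of the Rab genes was not tested.

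An interaction of genotype and stage, fitted in limma over all 6 libraries after the data had been seen, takes the lone 4-cell libraries to vary like the GV libraries. It called 0 of the 43 members, and 18 of 11451 genes (0.157%). At an unadjusted p under 0.05 there were 6 members, against 10.3% of all genes. The smallest adjusted p among members was that of Rab38, 0.242, with a difference of differences of 2.81 ± 0.36 (SE).

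**Figure D4:**
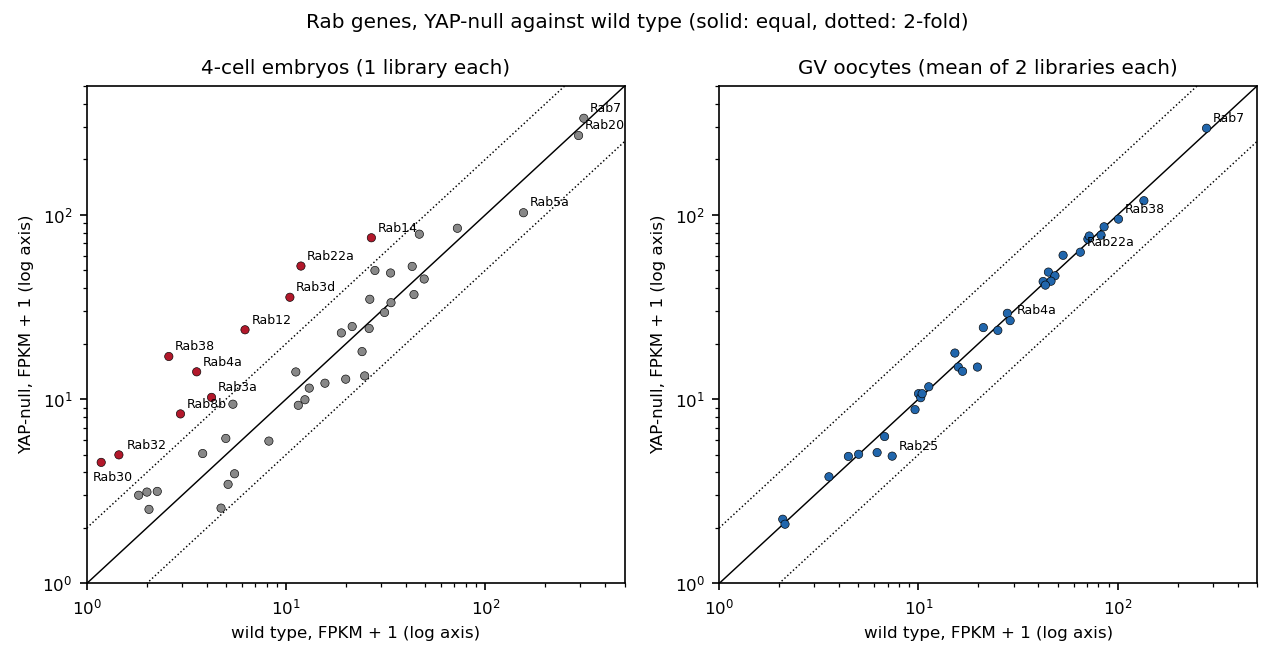
Level of each Rab gene in YAP-null (vertical) against wild type (horizontal), as FPKM + 1 on log axes, in 4-cell embryos (left, 1 library each, 45 genes) and GV oocytes (right, means of 2 libraries each, 35 genes). In 4-cell embryos 10 genes, in red, lie above the upper dotted 2-fold line and 0 lie below the lower one, and in GV oocytes all 35 lie between the lines.

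In GV oocytes no Rab gene passed a test between YAP-null and wild type. Of 35 members tested with limma 0 were higher and 0 lower at an adjusted p of 0.05, beside 0% of 10462 genes in either direction. At an unadjusted p under 0.05 there were 0 members, beside 0.21% of all genes, and the smallest p among members was 0.254. The differences ran from −0.55 (Rab25) to 0.21 (Rab18), with a median standard error of 0.39, and 32 of 35 lay within 0.25 of 0. The median was −0.0067 for the members and −0.0035 for all genes. The test had no term for the library number, although deviations of same-numbered libraries correlated at 0.849 over all genes tested. Its standard errors thus include the difference between numbers, and a lack of calls does not show that genotype had no effect.

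Complete separation of the 2 YAP-null from the 2 wild-type GV libraries was seen for 4 members. Rab18 alone was above, averaging 23.4 ± 0.695 FPKM in YAP-null oocytes and 20.2 ± 0.142 FPKM in wild-type oocytes (SD, n = 2 each, as for the averages that follow), where 5.1% of all genes were separated in that direction. Rab3b, Rab25 and Rab33b were below, where 5.68% of all genes were. Rab25 averaged 3.90 ± 0.669 FPKM in YAP-null oocytes and 6.38 ± 2.52 FPKM in wild-type oocytes, and Rab33b averaged 4.13 ± 0.0963 FPKM in YAP-null oocytes and 5.20 ± 0.624 FPKM in wild-type oocytes. For 5 of the 10 members that were 2-fold apart in 4-cell embryos, picked after their values were seen, the oocyte levels are set down as a description. Rab38 averaged 93.8 ± 4.26 FPKM in YAP-null oocytes and 99.9 ± 7.37 FPKM in wild-type oocytes. Rab22a averaged 61.7 ± 6.37 FPKM in YAP-null oocytes and 63.9 ± 5.88 FPKM in wild-type oocytes, and Rab4a averaged 25.7 ± 2.94 FPKM in YAP-null oocytes and 27.8 ± 6.35 FPKM in wild-type oocytes. The average of Rab3d was 76.5 ± 1.45 FPKM in YAP-null oocytes and 81.5 ± 11.1 FPKM in wild-type oocytes, and that of Rab12 was 13.9 ± 1.15 FPKM in YAP-null oocytes and 14.9 ± 1.87 FPKM in wild-type oocytes. In all 5 the YAP-null and wild-type libraries overlapped.

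Libraries with the same number were alike across genotypes. In 16 of the 35 members both number 2 libraries were above both number 1 libraries, and in 11 both were below, beside 43% of 10462 genes above and 34.4% below. Rab5a is an example: library 2 had 5.95 FPKM in YAP-null oocytes and 5.86 FPKM in wild-type oocytes, and library 1 had 2.08 FPKM in YAP-null oocytes and 2.15 FPKM in wild-type oocytes. Most such differences were small: 2 of 35 members in YAP-null and 2 of 36 in wild type differed by 2-fold or more between libraries 2 and 1, beside 26.9% of all genes in YAP-null and 23.3% in wild type.

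Genes that load, activate, silence or read Rab proteins were listed separately: 127 symbols, of which 126 were in the tables. Between stages 101 were tested, 22 were higher in 4-cell embryos, 31 were lower and 48 did not pass (21.8% higher and 30.7% lower, beside 28.2% and 27.8% of all genes), with a median of −0.38 beside −0.10 for all genes. Without the YAP-null 4-cell library 14 were higher and 15 lower, and without the wild-type one 9 were higher and 14 lower. Of those called, 7 of the higher and 5 of the lower averaged under 1 FPKM at the other stage and had to differ; those named are Tbc1d9, Tbc1d12, Tbc1d17, Rilpl2, Rabep2 and Rin3, given with no p. Of the 87 at 1 FPKM or more at each stage, 15 were higher and 26 lower, beside 23.5% and 24.6% of the 8915 genes of that kind. The counts by list that follow include the genes that had to differ. They are to be read beside the 28.2% higher and 27.8% lower of all genes. Of the 39 tested activators 7 were higher, among them Rabgef1 and Gapvd1, exchange factors for Rab5, and Mon1a, which with Ccz1 activates Rab7. Rabgef1 had 52.6 FPKM in YAP-null 4-cell embryos and 51.5 FPKM in wild-type ones, and GV values of 2.88 and 1.44 FPKM in YAP-null oocytes and 2.10 and 1.87 FPKM in wild-type oocytes (4.13 ± 0.34 SE, adjusted p = 0.000309). Mon1a had 81.5 FPKM in YAP-null 4-cell embryos and 125 FPKM in wild-type ones, and GV values of 20.0 and 9.44 FPKM in YAP-null oocytes and 16.9 and 8.39 FPKM in wild-type oocytes (2.88 ± 0.47 SE, adjusted p = 0.00296). Among the 9 lower were Trappc5 and Trappc1, subunits of the TRAPP complexes that activate Rab1, at −2.91 and −2.50, Madd, an exchange factor for Rab3 and Rab27, at −2.65, and Rin3, of a family that acts on Rab5, at −2.15.

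Of the 32 tested genes of the GAP list 7 were higher and 16 lower in 4-cell embryos, beside 28.2% and 27.8% of all genes tested. The list took in every symbol that starts with Tbc1d and a number. Action on a Rab was not checked for each of them. Tbc1d14 had 7.32 FPKM in YAP-null 4-cell embryos and 2.81 FPKM in wild-type ones, and GV values of 349.7 and 281 FPKM in YAP-null oocytes and 369 and 280.0 FPKM in wild-type oocytes (−5.82 ± 0.40 SE, adjusted p = 0.000191). Tbc1d9 had 38.1 FPKM in YAP-null 4-cell embryos and 48.2 FPKM in wild-type ones, and GV values of 0.0657 and 0 FPKM in YAP-null oocytes and 0 and 0 FPKM in wild-type oocytes (5.43 ± 0.27 SE). Rab3gap1 had 8.56 FPKM in YAP-null 4-cell embryos and 8.45 FPKM in wild-type ones, and GV values of 105 and 83.5 FPKM in YAP-null oocytes and 80.8 and 84.3 FPKM in wild-type oocytes (−3.22 ± 0.30 SE, adjusted p = 0.000478). Rab3gap1, a subunit of the complex that turns Rab3 off, was thus lower in 4-cell embryos together with Rab3a, Rab3b and Rab3d. The other genes named from this list were Tbc1d20 (2.83), which acts on Rab1, Tbc1d17 (2.06) and Tbc1d12 (2.01) among the higher, and Tbc1d8 (−3.12) and Tbc1d22b (−2.97) among the lower.

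Of the 24 tested effectors 7 were higher and 4 lower, beside 28.2% and 27.8% of all genes tested. Rilpl2 had 62.1 FPKM in YAP-null 4-cell embryos and 49.1 FPKM in wild-type ones, and GV values of 0.298 and 0.234 FPKM in YAP-null oocytes and 0.376 and 0 FPKM in wild-type oocytes (5.53 ± 0.30 SE). Zfyve20 had 87.4 FPKM in YAP-null 4-cell embryos and 111 FPKM in wild-type ones, and GV values of 6.61 and 7.98 FPKM in YAP-null oocytes and 7.82 and 7.44 FPKM in wild-type oocytes (3.56 ± 0.30 SE, adjusted p = 0.000332). Zfyve20, or rabenosyn-5, binds Rab5 and Rab4. Rab11fip1, which binds Rab11, was at 2.71, and Rabep2, a binder of Rab5, at 2.61. Sytl4 had 18.2 FPKM in YAP-null 4-cell embryos and 0.414 FPKM in wild-type ones, and GV values of 55.8 and 41.1 FPKM in YAP-null oocytes and 44.4 and 41.4 FPKM in wild-type oocytes (−3.15 ± 0.78 SE, adjusted p = 0.0148). Myo5b had 13.3 FPKM in YAP-null 4-cell embryos and 3.75 FPKM in wild-type ones, and GV values of 28.95 and 128 FPKM in YAP-null oocytes and 28.7 and 118 FPKM in wild-type oocytes (−2.88 ± 0.82 SE, adjusted p = 0.0244). Sytl4, or granuphilin, ties granules to Rab27 and Rab3, and the motor Myo5b is bound by Rab11. Myo5b also differed between the numbers in GV oocytes, where its values in library 2 of both genotypes lay above those in library 1. Appl1, a Rab5 effector, was at −2.19 and Exoc6 at −1.86.

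Of the 8 genes of prenylation and the GDI cycle, 6 were tested between stages, 1 was higher and 2 were lower. Rabggtb, the catalytic subunit of the enzyme that prenylates Rabs, was higher (1.41, adjusted p = 0.0400), and its partner Rabggta was lower (−1.40, 0.0245). Gdi2, a GDP dissociation inhibitor, had 119 FPKM in the YAP-null 4-cell library and 150.3 FPKM in the wild-type one, and 133 and 106 FPKM in YAP-null GV libraries and 133 and 113 FPKM in wild-type GV libraries, and did not pass (0.14). Between genotypes at the 4-cell stage this list had 0 members 2-fold higher and 4 lower in YAP-null. Rabggtb had 12.5 FPKM in YAP-null embryos and 42.3 FPKM in wild-type embryos, and Rabggta had 1.58 FPKM in YAP-null embryos and 5.85 FPKM in wild-type embryos. Chm, a Rab escort protein, had 0.219 FPKM in YAP-null embryos and 2.28 FPKM in wild-type embryos, so that it averaged 1 FPKM only through the wild-type library. In the other lists 7 of 37 activators were 2-fold higher in YAP-null and 0 lower, 5 of 29 GAPs were higher and 1 lower, and 6 of 22 effectors were higher and 1 lower. Over all lists 18 of 96 were higher and 6 lower, or 18.8% and 6.25%, beside 17.7% and 9.97% of all genes, with a median of 0.30 beside 0.05. In GV oocytes 0 of 95 passed the limma test between genotypes.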

How the data were processed

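RNA of 6 libraries was sequenced paired-end, per the labels' protocols. The authors deposited 1 gene table per library, whose FPKM values are fragments scaled to transcript length and to the mapped fragments of the library, per the file headers. Reads came from CASAVA 1.8 and TopHat on mm9, per the submitters' processing notes. The sources used here do not give the program behind the FPKM, its annotation or the TopHat release. The columns are laid out as Cufflinks writes them. The tables give no counts, so depth is unknown, and strand of the counting is not given.

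Of 23813 lines per table, 1 was dropped for its failed status, and FPKM was summed for the 260 symbols at several loci, none of them Rab genes. Starts in the files count from 0 and were raised by 1. Values were tested as log2(FPKM + 1), a scale that understates the change of low genes, with limma 3.58.1 (limma-trend, R 4.3.3), two-sided, Benjamini-Hochberg adjusted p of 0.05 over all genes averaging 1 FPKM or more in the libraries compared. Stage was tested in 6 libraries with genotype as a term and genotype in the 4 GV libraries. The scripts were checked on simulated data. The 4-cell genotypes, with 1 library each, were set apart at 2-fold on the same scale. Per-library values are given for members averaging 10 FPKM or more at either stage, called in a test, or 2-fold apart at the 4-cell stage. Of the regulator lists, up to 4 genes per list and direction with the largest stage difference among those called are named. A gene at 0 may be a failed estimate and is called listed at 0.

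The members, compartment groups and regulator lists were chosen with earlier results of these data known. Some regulators are counted in their list but not reported by name here. Gene symbols of all 57 members were matched to RefSeq, 1 through an older symbol. Promoters come from RefSeq (GRCm38.p6) and were not placed on mm9. Alternatives covered the pseudocount, the filter on low values, scaling, summing of loci, the size rule, the trend, the genotype term, the GV libraries of 1 number, a replicate block and each library left out.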

Additional observations from a re-analysis of the deposited data

Results flagged for a closer look

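Rab3b, one of the Rab3 genes of regulated secretion, had YAP-null values on opposite sides of the wild-type ones at the 2 stages, though neither difference was called. The difference of log2(FPKM + 1) was 0.64 in 4-cell embryos, where there is 1 library each and no test, with 2.13 FPKM in YAP-null embryos and 1.00 FPKM in wild-type embryos. It was −0.23 in GV oocytes, with 14.01 and 12.3 FPKM in YAP-null oocytes and 16.5 and 14.8 FPKM in wild-type oocytes, which did not overlap. Of all genes, 5.68% were separated in that direction in GV oocytes. Limma's test over all genes did not call the GV difference of Rab3b (adjusted p = 0.999998). The interaction of genotype and stage, fitted with limma after the data had been seen, gave 0.88 ± 0.43 (SE) with an adjusted p of 0.640. Groups of 4 or more libraries, in which a single library could be tested for standing apart, do not exist within a genotype and stage.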

How the results depend on the processing

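In GV oocytes the count of Rab genes called stayed at 0 in both directions under every alternative, with 0 to 0 when each library was left out. The replicate block, which pairs GV libraries by number, called 0 members and, over all genes, 1 higher and 1 lower. Deviations of same-numbered libraries correlated at 0.849 over 10462 genes, but the labels do not say what the number marks. No replicate block could be fitted between stages, since the 4-cell libraries carry no number. The stage counts of members were 8 to 16 higher and 5 to 10 lower when each library was left out: 8 higher and 10 lower without the YAP-null 4-cell library, 8 higher and 5 lower without the wild-type one. For the regulators they were 9 to 20 higher and 14 to 34 lower: 14 and 15 without the YAP-null, 9 and 14 without the wild-type 4-cell library. Over all genes the counts were 2115 higher and 2100 lower without the YAP-null and 1650 and 1315 without the wild-type 4-cell library, against 3228 and 3180 with all. Fewer samples were fitted in each, and without either 4-cell library only 1 library of that stage was left. With GV libraries 2 alone, Rab2a, Rab14 and Rab27a also passed as lower, at −1.07, −1.28 and −1.29. In 4-cell embryos 6 members were 2-fold higher in YAP-null with a pseudocount of 5 FPKM and 2 members under a 4-fold rule. There was 1 member 2-fold lower with a pseudocount of 0.1 FPKM, 2 after quantile normalisation and 1 after median-ratio scaling. Of the regulators, 8 were higher and 1 lower with a pseudocount of 5 FPKM, and 2 were lower when a mean of 5 FPKM was asked for. Over all genes 834 were higher and 441 lower with a pseudocount of 5 FPKM, 1083 and 640 when a mean of 5 FPKM was asked for, and 495 and 201 at 4-fold, against 1925 and 1082. Of 1505 single-gene alternatives, 1438 kept their side of the threshold, 56 lost it and 11 gained it. The sign turned in 0 of the 563 that concern a called difference and in 73 of all 1505, of which 58 concern GV oocytes, 7 the 4-cell genotypes and 8 the stages. Where no construction shows it, the cause was not tested.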
